A study of Mus musculus with 8 samples.

Results

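The intraflagellar transport (IFT) and Bardet-Biedl syndrome (BBS) genes encode the machinery that carries proteins into, along and out of the primary cilium. They were chosen by name: every protein-coding gene whose mouse symbol is Ift or Bbs followed by a number, together with Traf3ip1, Cluap1, Ttc21b, Wdr19, Wdr35, Kif3a, Kif3b, Kif7, Arl13b, Arl6, Mkks, Rfx3 and Dync2h1. This gave 35 genes of the 55487 gene identifiers in the tables, and the rule itself uses no measured value. RNA was sequenced from islets picked by hand from the pancreas of C57BL/6J mice, with 3 samples from Ide-/- mice, which lack insulin-degrading enzyme, and 5 samples from Ide+/+ mice. The labels call all of the mice female, and every mouse was given a diet with 60 kcal% fat for 2 weeks from 10 weeks of age, so no group on an ordinary diet was measured. The labels name no cell type or promoter for the deletion and do not say how many animals gave each sample. P-values therefore measure only the spread between these samples.

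The primary cilium is a single, usually non-motile, microtubule-based projection of the cell surface, and in islets it is carried by beta, alpha and delta cells. Trains of IFT-B and IFT-A complexes move along it, outward with kinesin-2 and back with cytoplasmic dynein-2. The BBSome rides on these trains and moves membrane receptors across the base of the cilium, and inherited loss of BBS genes causes obesity with retinal and kidney disease in humans.

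Ide, the targeted gene (chr19:37268743-37337852, minus strand, GRCm38), had 0.167, 0.285 and 0.367 CPM (counts scaled to library size with TMM factors) in the Ide-/- libraries, against 39.2, 19.5, 20.3, 28.3 and 27.5 CPM in the Ide+/+ libraries. It fell by 6.74 on the log2 scale (SE 0.39, adjusted p = 6.18e-06 by edgeR), and the genotype labels and the Ide counts matched in all 8 libraries. Library totals ran from 7143415 to 17445935 counts in Ide-/- islets and from 19277269 to 33371642 counts in Ide+/+ islets. Acinar marker genes took 1.1% to 2.67% of the counts in Ide-/- libraries and 41.6% to 77.3% in Ide+/+ libraries, and 40 of 40 acinar markers were called lower in Ide-/- islets. Mitochondrial transcripts took 9.81% to 28.2% of the counts in Ide-/- libraries and 0.512% to 9.43% in Ide+/+ libraries. Of the other markers, 9 of 12 duct genes and 12 of 14 macrophage genes were called lower, 12 of 12 cell cycle genes were called higher, and 0 of 11 beta cell genes were called. The beta cell markers summed to 83740 to 106300 CPM in Ide-/- libraries and 35390 to 138600 CPM in Ide+/+ libraries, so islet RNA was present in each. In 7 of the 8 libraries the counts of the X-inactivation transcript Xist (0 to 11) and of the Y-linked gene Ddx3y (503 to 2139) went against the female label, while Ide+/+ replicate 1 had 692 and 0. Ide+/+ replicate 1 also had the largest acinar share, and results are given without it where that changes a call. In bulk tissue, fewer cells of a type and less RNA per cell cannot be told apart.

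Of the 35 genes, 34 passed the filter on low counts and Kif7 did not. In the comparison of Ide-/- with Ide+/+ islets 6 of these 34 rose and 0 fell at an adjusted p under 0.05 (edgeR quasi-likelihood test, Benjamini-Hochberg adjustment over 16266 genes). The 6 were Ift81, Ift122 and Wdr35, which are subunits of the transport trains, Bbs2, a BBSome subunit, and Bbs10 and Bbs12, chaperonin-like proteins that assemble the BBSome. The 6 genes made up 17.6% of the members tested. Over all genes tested, 10.4% were called higher and 10.6% lower. At an unadjusted p under 0.05, 9 members were higher (26.5%, against 18% of all genes) and 0 were lower (against 18.1%). The log2 fold change was above 0 for 22 of 34 members (64.7%, against 49.6% of all genes), and its median was 0.23 over the members and -0.01 over all genes.

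CPM in every Ide-/- library stood above every Ide+/+ library for 8 of 34 members (23.5%), the 6 called genes with Ift20 and Rfx3, and the same held for 17.4% of all genes. No member had all Ide-/- libraries below all Ide+/+ libraries, against 15.6% of all genes. The calls depended on single libraries, and so did those over all genes. Without Ide-/- replicate 1, 3 members were called higher (5.08% of all genes), without Ide-/- replicate 2 there was 1 (4.61%), and without Ide-/- replicate 3 there was 1 (4.07%). Without Ide+/+ replicate 4, 2 members were called higher (6.2% of all genes), and without Ide+/+ replicate 1 there were 9 (13.4%), with Ift20, Ift80 and Rfx3 added. Against Ide+/+ replicates 2 and 3 alone, the Ide+/+ libraries with the smallest acinar shares, 5 members were called higher (Ift81, Bbs2, Bbs10, Wdr35 and Ift20), with 11.8% of all genes, and 1 lower (Ift22), with 12.4% of all genes. Leaving the acinar genes out of the TMM factors left all 6 called (9.91% of all genes were higher). With libraries scaled on secretory granule genes 0 members were called, where 4.94% of all genes were higher and 5.53% lower. With the acinar share as a term 0 members were called, and over all genes 1 was higher and 15 were lower. In that fit the log2 fold change was 0.74 for Ift81, 0.74 for Bbs2, 0.99 for Bbs10, 0.59 for Wdr35, 0.20 for Bbs12 and -0.07 for Ift122. No Ide-/- library reached the acinar share of any Ide+/+ library, so composition and genotype cannot be told apart here.

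**Figure D1:**
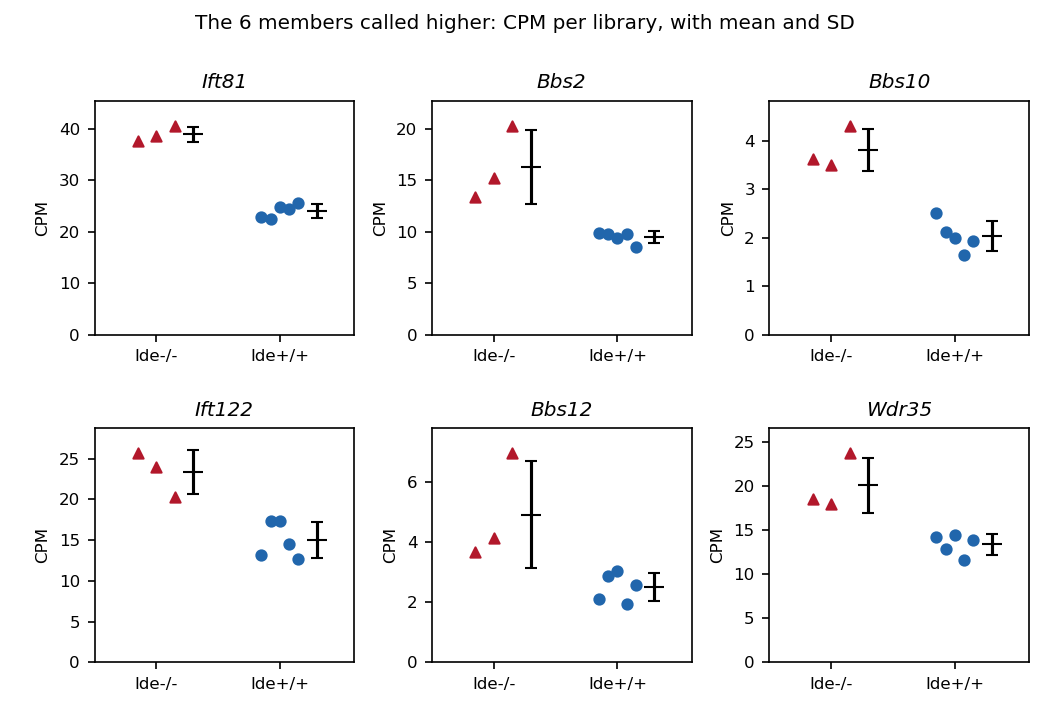
CPM of the 6 members called higher, one panel per gene, with each library as a point (Ide-/- triangles, n = 3, left; Ide+/+ circles, n = 5, right) and the mean ± SD beside the points. In each panel every Ide-/- library lies above every Ide+/+ library.

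Of the 35 genes, 32 had an entry in the RefSeq promoter table (GRCm38.p6, 250 bases before to 50 bases after the start of transcription). The promoters were searched for the X-box, the DNA motif bound by RFX transcription factors such as Rfx3, because Rfx3 is itself one of the genes. The X-box was spelled as GTNNCC, 0 to 3 bases of any kind, then GGNAAC, and its half-site as GTTGCC, both on either strand. The X-box was found in 5 of 32 member promoters (15.6%), in Bbs1, Bbs4, Bbs7, Ift22 and Ift57, and in 2.68% of the 27025 genes in the table. The half-site was found in 14 of 32 (43.8%) against 14.1%, and in Bbs1, Bbs7 and Ift57 it lay inside an X-box match. These are letter matches and not measured binding sites. The 3 promoters with an X-box upstream of the start are shown first, as 100 bases upstream of the start with the X-box in capitals, because they carry the motif that RFX factors bind.
Bbs7, chr3:36613450-36613549, minus strand: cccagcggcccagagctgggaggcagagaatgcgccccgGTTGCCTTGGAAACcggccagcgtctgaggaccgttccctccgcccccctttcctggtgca
Ift22, chr5:136908050-136908149, plus strand: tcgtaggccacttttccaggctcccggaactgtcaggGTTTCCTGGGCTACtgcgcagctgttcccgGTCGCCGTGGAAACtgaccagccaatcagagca
Ift57, chr16:49699194-49699293, plus strand: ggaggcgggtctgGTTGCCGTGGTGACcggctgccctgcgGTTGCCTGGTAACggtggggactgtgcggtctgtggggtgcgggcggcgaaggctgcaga
Of the 6 genes called higher, Bbs2, Bbs10, Bbs12 and Wdr35 had a promoter in the table. The 100 bases just before their RefSeq starts are shown for comparison and hold neither motif. By the GENCODE M21 gene positions used for all other coordinates, the Bbs2 and Wdr35 stretches lie inside the gene. The Bbs7 and Ift57 stretches above lie partly inside theirs. The only match in these 4 windows was a half-site in Wdr35, after its start.
Bbs2, chr8:94098510-94098609, minus strand: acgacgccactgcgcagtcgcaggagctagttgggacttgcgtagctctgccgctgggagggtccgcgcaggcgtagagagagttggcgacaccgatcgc
Bbs10, chr10:111298579-111298678, plus strand: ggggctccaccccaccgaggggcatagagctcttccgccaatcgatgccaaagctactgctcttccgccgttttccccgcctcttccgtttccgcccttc
Bbs12, chr3:37312454-37312553, plus strand: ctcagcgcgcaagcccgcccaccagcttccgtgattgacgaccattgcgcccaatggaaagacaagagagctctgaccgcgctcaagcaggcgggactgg
Wdr35, chr12:8973901-8974000, plus strand: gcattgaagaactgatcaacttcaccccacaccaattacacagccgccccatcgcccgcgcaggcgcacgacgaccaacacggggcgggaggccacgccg
None of the 5 genes with an X-box match was called higher, where 10.4% of all genes tested were, and 5 genes are too few to set against that share. Their log2 fold changes ran from -0.42 for Ift22 to 0.70 for Bbs1.

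The transport genes differed widely in level when set per length, in TPM, the length-corrected share of a library. Ift20, a subunit that also works at the Golgi, had the highest level in both genotypes, 197.7 ± 7.87 TPM in Ide-/- islets and 85.3 ± 20.9 TPM in Ide+/+ islets (SD, n = 3 and n = 5). Ift81 had the next highest mean in both, with 32.2 ± 7.16 TPM in Ide-/- islets and 12.5 ± 5.92 TPM in Ide+/+ islets. Ift46 and Dync2h1 also had the same place, 3 and 5, in both genotypes. The TPM ranges of Ift81 and Ift46 overlapped in Ide-/- islets (24.9 to 39.2 for Ift81 and 20.99 to 28.2 for Ift46) and in Ide+/+ islets (5.82 to 19.1 and 8.24 to 15.9), so that their order is within the spread in both. At the low end Kif7, the kinesin that acts in Hedgehog signalling, had 0.05 ± 0.0173 TPM in Ide-/- islets and 0.018 ± 0.0192 TPM in Ide+/+ islets. Its counts were 0 to 5 in all libraries, and it was not tested.

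**Figure D2:**
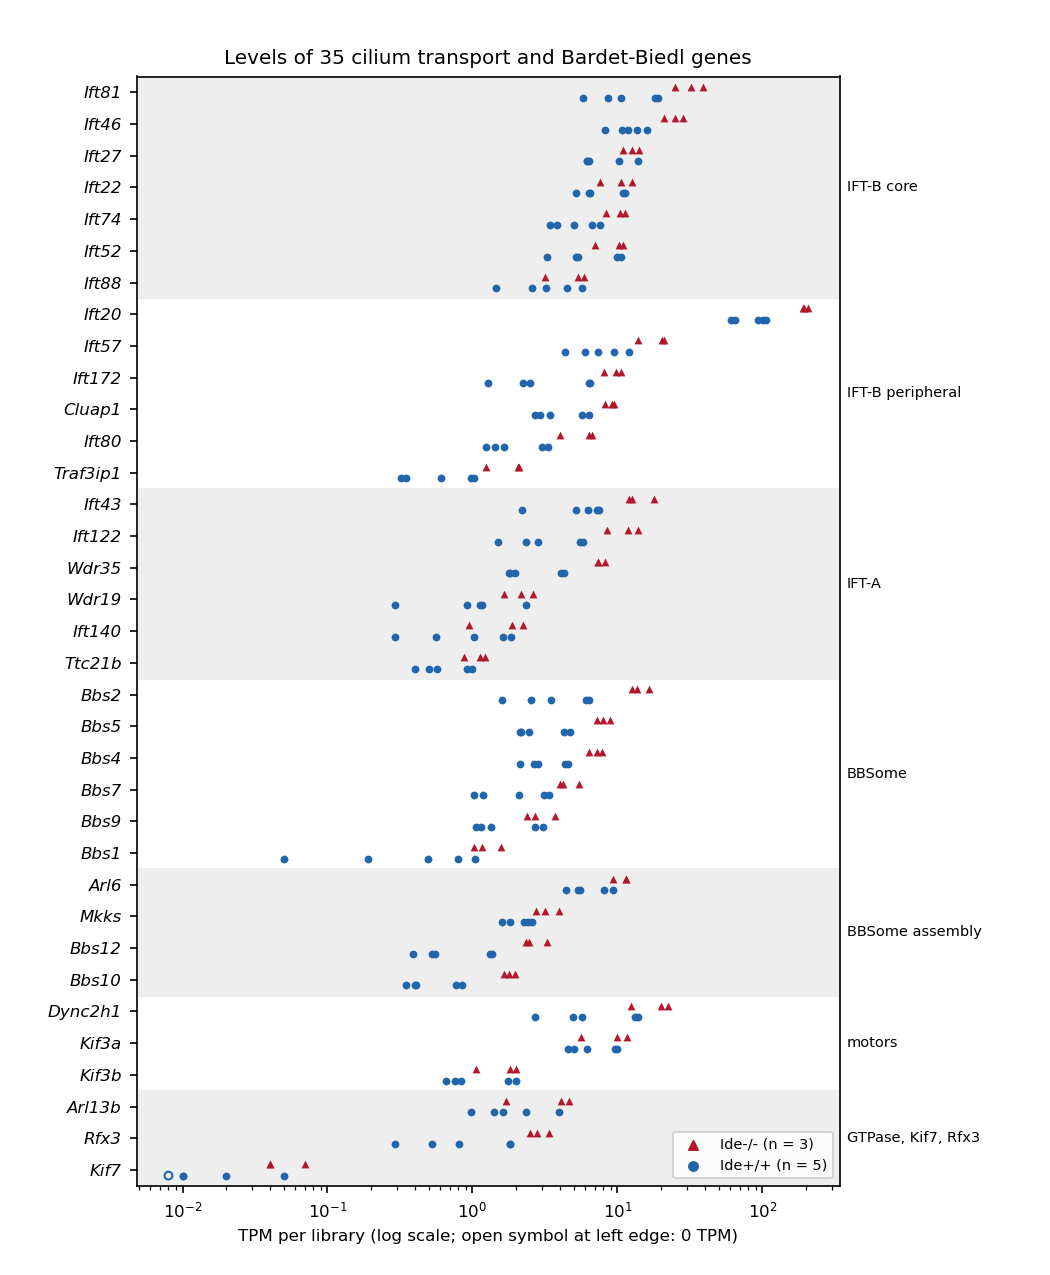
TPM of the 35 genes in each library (horizontal log axis), ordered by role, with Ide-/- libraries as triangles (n = 3) above Ide+/+ libraries as circles (n = 5) in each row. Ift20 stands at the top of the scale in all libraries and Kif7 at the bottom.

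TPM is a share of the library, so the level of every gene outside the acinar programme also moves with the acinar share. The summed TPM of the 35 genes was 510.7, 483.7 and 433.3 in Ide-/- libraries and 151.2, 291.2, 302.8, 202.7 and 153.6 in Ide+/+ libraries. Those Ide+/+ libraries with the smallest acinar shares, replicates 2 and 3, had the highest sums of their genotype, and no Ide+/+ library reached the lowest Ide-/- library. On the log2(TPM + 1) scale without any correction for composition, 18 members were called higher by limma, where 29.2% of all genes were called higher and 2.05% lower. The median log2 fold change there was 0.86 over the members and 0.44 over all genes.

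**Figure D3:**
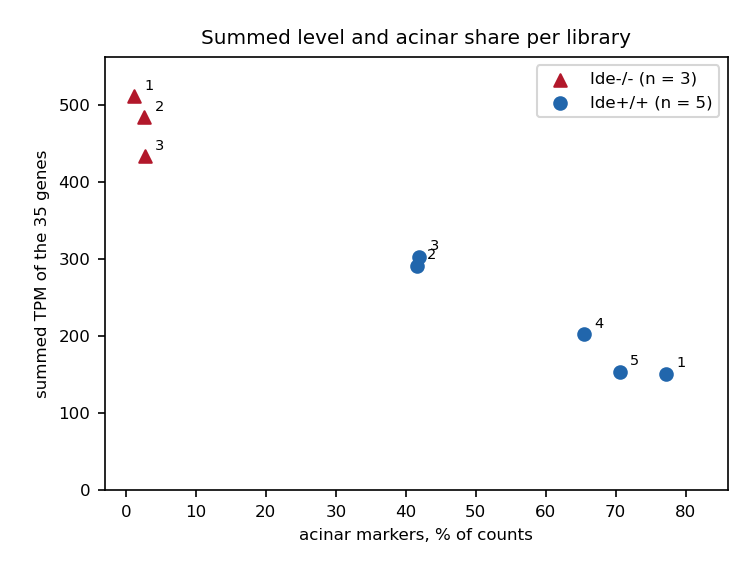
Summed TPM of the 35 genes (vertical axis) against the percent of counts on acinar markers (horizontal axis), one point per library with its replicate number, Ide-/- triangles (n = 3) and Ide+/+ circles (n = 5). The Ide-/- libraries lie between 433.3 and 510.7 TPM at under 3% acinar counts, and the Ide+/+ libraries between 151.2 and 302.8 TPM at over 40%.

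The core of IFT-B, which forms the backbone of the train, gave 1 call among the 7 of its genes that the name rule picked. Over all genes, 10.4% were called higher and 49.6% had a log2 fold change above 0, and 7 genes are too few to set against these shares. Ift81 (chr5:122550204-122614518, minus strand), which binds tubulin cargo together with Ift74, had 37.7, 38.6 and 40.6 CPM in Ide-/- islets, against 22.9, 22.5, 24.9, 24.4 and 25.6 CPM in Ide+/+ islets. The libraries of each genotype lay close together and the genotypes did not overlap. Ift81 averaged 39.0 ± 1.47 CPM in Ide-/- islets and 24.1 ± 1.36 CPM in Ide+/+ islets and rose by 0.70 on the log2 scale (SE 0.16, adjusted p = 0.0115 by edgeR). Without Ide-/- replicate 2 its adjusted p by edgeR was 0.0533. The other 6 core members were not called. Ift46 had a log2 fold change of 0.21, Ift74 0.00, Ift88 -0.17, Ift27, the small GTPase that links the train to the BBSome, -0.24, Ift52 -0.28 and Ift22, another small GTPase-like subunit, -0.42. The median of these 7 genes was -0.17, below that of all genes, and 2 of the 7 were above 0.

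Ift81 and Ift74 form a dimer in the train, and their counts did not keep the same ratio in the genotypes. The count of Ift81 per count of Ift74 was 2.59, 2.32 and 2.77 in Ide-/- libraries and 0.979, 1.57, 1.93, 2.23 and 1.65 in Ide+/+ libraries. Every Ide-/- library stood above the highest Ide+/+ library, by a small margin for Ide-/- replicate 2. This ratio needs no scaling between libraries, but it uses the same counts as the Ift81 call and is not separate support for it. The ratios here and below were picked after the values were seen. How often other gene pairs stand apart was not tested. Ift74 overlaps Lrrc19 on the opposite strand, which averaged 2.62 counts, and the strand setting of the counting was not given in the sources used here. Ift22, whose promoter holds 2 X-box matches above, had 7.99, 6.79 and 6.42 CPM in Ide-/- islets, against 11.6, 10.3, 9.88, 8.13 and 7.51 CPM in Ide+/+ islets. Only Ide-/- replicate 1 lay within the Ide+/+ range. Its log2 fold change was -0.42 (SE 0.20, adjusted p = 0.153 by edgeR), and against Ide+/+ replicates 2 and 3 alone it was -0.49 (SE 0.15, adjusted p = 0.0486 by edgeR).

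The peripheral subunits of IFT-B, which dock the train to kinesin and to the membrane, all had log2 fold changes above 0, and 0 of 6 were called. Their median was 0.42, the highest of the role groups, with a range from 0.21 for Ift57 to 0.54 for Ift20. Over all genes, 49.6% had a log2 fold change above 0, and 6 genes are too few to set against that share. Ift20, the subunit that carries cargo from the Golgi to the cilium base (chr11:78536361-78541737, plus strand), had 105.2, 108.8 and 137.8 CPM in Ide-/- islets, against 98.4, 63.9, 70.0, 92.5 and 79.7 CPM in Ide+/+ islets. The genotypes did not overlap, but Ide+/+ replicate 1 came close to the lowest Ide-/- library. The fold change had an SE of 0.22 and an adjusted p of 0.105 by edgeR, and without Ide+/+ replicate 1 its adjusted p by edgeR was 0.031. Ift20 made up 81.8 ± 1.51% of the summed TPM of the peripheral subunits in Ide-/- islets and 82.6 ± 3.5% in Ide+/+ islets (SD, n = 3 and n = 5), and the libraries overlapped. Ift80 had a log2 fold change of 0.44 (adjusted p = 0.134 by edgeR, and 0.0191 without Ide+/+ replicate 1). Traf3ip1, also known as Ift54, had 0.49, Cluap1, also known as Ift38, 0.40, and Ift172 0.25.

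IFT-A, the complex that carries receptors into the cilium and returns the train to its base, gave 2 calls among 6 members. Over all genes, 10.4% were called higher, and 6 genes are too few to set against that share. Ift122 (chr6:115853470-115926699, plus strand) had 25.6, 24 and 20.4 CPM in Ide-/- islets, against 13.2, 17.4, 17.4, 14.6 and 12.7 CPM in Ide+/+ islets. Wdr35, also known as Ift121 (chr12:8973892-9028847, plus strand), had 18.5, 18 and 23.6 CPM in Ide-/- islets, against 14.2, 12.8, 14.4, 11.6 and 13.8 CPM in Ide+/+ islets. For both genes every Ide-/- library lay above every Ide+/+ library. Ift122 averaged 23.3 ± 2.71 CPM in Ide-/- islets and 15 ± 2.24 CPM in Ide+/+ islets and rose by 0.63 on the log2 scale (SE 0.18, adjusted p = 0.0296 by edgeR). Wdr35 averaged 20.04 ± 3.14 CPM in Ide-/- islets and 13.4 ± 1.18 CPM in Ide+/+ islets and rose by 0.58 on the log2 scale (SE 0.17, adjusted p = 0.0335 by edgeR). Leaving out any Ide-/- library, or Ide+/+ replicate 4 or 5, ended the Ift122 call, with adjusted p between 0.0502 and 0.124 by edgeR. Leaving out any Ide-/- library, or Ide+/+ replicate 2, 3 or 4, ended the Wdr35 call, with adjusted p between 0.0504 and 0.142 by edgeR.

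Ift43, the IFT-A subunit with the highest TPM (chr12:86082541-86162459, plus strand), had 5.24, 5.98 and 10.8 CPM in Ide-/- islets, against 3.21, 4.51, 4.44, 5.24 and 7.94 CPM in Ide+/+ islets. The genotypes overlapped and Ide-/- replicate 3 was the highest library. Its log2 fold change of 0.52 had an SE of 0.31 (adjusted p = 0.240 by edgeR). Wdr19, also known as Ift144, had a log2 fold change of 0.06, Ift140 -0.05 and Ttc21b, also known as Ift139, -0.12. Within the complex, the count of Ift122 per count of Wdr19 was 3.92, 4.15 and 4.44 in Ide-/- libraries and 3.14, 2.96, 2.53, 2.55 and 3.03 in Ide+/+ libraries, with no overlap. The count of Wdr35 per count of Wdr19 overlapped between genotypes, at 2.83, 3.11 and 5.16 in Ide-/- libraries, against 3.38, 2.17, 2.1, 2.03 and 3.31 in Ide+/+ libraries. These ratios use the same counts as the Ift122 and Wdr35 calls and are not separate support for them.

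The BBSome, the coat-like complex that sorts ciliary membrane proteins, gave 1 call among the 6 of its genes that the name rule picked. Of these 6, 5 had log2 fold changes above 0. Over all genes, 10.4% were called higher and 49.6% were above 0, and 6 genes are too few to set against these shares. Bbs2 (chr8:94067954-94098928, minus strand), whose promoter is shown above, had 13.3, 15.2 and 20.3 CPM in Ide-/- islets, against 9.92, 9.78, 9.42, 9.78 and 8.48 CPM in Ide+/+ islets. The Ide+/+ libraries lay within a narrow band and all Ide-/- libraries above it, with Ide-/- replicate 3 the highest. Bbs2 averaged 16.3 ± 3.59 CPM in Ide-/- islets and 9.47 ± 0.587 CPM in Ide+/+ islets and rose by 0.77 on the log2 scale (SE 0.18, adjusted p = 0.0126 by edgeR). Without Ide-/- replicate 3 its adjusted p by edgeR was 0.0675. By TPM it was the 6th highest member in Ide-/- islets and the 14th in Ide+/+ islets.

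Bbs1, which contacts the recruiting GTPase Arl6, had a log2 fold change of 0.70 with an SE of 0.37 (adjusted p = 0.201 by edgeR). Its CPM was 3.17, 2.40 and 3.76 in Ide-/- islets, against 0.601, 2.85, 2.20, 1.89 and 1.5 CPM in Ide+/+ islets, so that the genotypes overlapped and Ide+/+ replicate 1 was the lowest library. Bbs5 had a log2 fold change of 0.30, Bbs4 0.27, Bbs7 0.14 and Bbs9, a scaffold subunit, -0.38. Bbs2, Bbs7 and Bbs9 form the core of the BBSome, and the count of Bbs2 per count of Bbs9 was 1.92, 2.85 and 4.33 in Ide-/- libraries and 1.18, 1.22, 1.39, 1.42 and 1.22 in Ide+/+ libraries, with no overlap. The count of Bbs2 per count of Bbs7 overlapped between genotypes, at 1.92, 1.83 and 2.4 in Ide-/- libraries, against 0.861, 1.4, 1.24, 2.1 and 1.61 in Ide+/+ libraries. Both ratios use the same counts as the Bbs2 call and are not separate support for it.

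The genes that assemble and recruit the BBSome split. The chaperonin-like proteins Bbs10 and Bbs12 rose, while their relative Mkks and the GTPase Arl6, which brings the BBSome to membranes, were not called and had log2 fold changes below 0. These are 4 genes, too few to set against the 10.4% of all genes called higher. Bbs10 (chr10:111298679-111301727, plus strand) had 3.62, 3.5 and 4.31 CPM in Ide-/- islets, against 2.51, 2.11, 1.99, 1.65 and 1.93 CPM in Ide+/+ islets. Bbs12 (chr3:37312554-37321453, plus strand) had 3.68, 4.15 and 6.97 CPM in Ide-/- islets, against 2.10, 2.88, 3.06, 1.94 and 2.58 CPM in Ide+/+ islets. Neither gene overlapped between genotypes, and Ide-/- replicate 3 was the highest library for both. Bbs10 averaged 3.81 ± 0.437 CPM in Ide-/- islets and 2.04 ± 0.312 CPM in Ide+/+ islets and rose by 0.90 on the log2 scale (SE 0.24, adjusted p = 0.0210 by edgeR). Bbs12 averaged 4.93 ± 1.78 CPM in Ide-/- islets and 2.51 ± 0.48 CPM in Ide+/+ islets and rose by 0.93 on the log2 scale (SE 0.27, adjusted p = 0.0329 by edgeR). Leaving out any Ide-/- library or Ide+/+ replicate 4 ended the Bbs10 call (adjusted p between 0.0556 and 0.0811 by edgeR), and leaving out Ide-/- replicate 2, Ide-/- replicate 3 or Ide+/+ replicate 4 ended the Bbs12 call (between 0.0695 and 0.170). Bbs12 overlaps Cetn4 on the opposite strand, which had a log2 fold change of 0.41 (adjusted p = 0.315 by edgeR), and the expected counts of Bbs12 were whole numbers, within 0.005, in 8 of 8 libraries.

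Arl6, the most abundant gene of this set per length (chr16:59612949-59639391, minus strand), had 11.6, 12.8 and 12.9 CPM in Ide-/- islets, against 20.3, 11.5, 13.8, 13 and 13.3 CPM in Ide+/+ islets. The genotypes overlapped, and the high value was again Ide+/+ replicate 1. Its log2 fold change was -0.20 (SE 0.21, adjusted p = 0.512 by edgeR), and that of Mkks was -0.32 (SE 0.24, adjusted p = 0.367 by edgeR). Mkks overlaps Slx4ip and other annotated genes, and its expected counts were not whole numbers in 8 of 8 libraries, so some of its reads were divided with other genes by the counting model.

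The motors gave no call among 3 members. Dync2h1, the heavy chain of the motor that returns the trains (chr9:6928503-7184446, minus strand), had 63.4, 67.0 and 46.3 CPM in Ide-/- islets, against 27.5, 55.9, 54.9, 43.0 and 45.8 CPM in Ide+/+ islets. The genotypes overlapped, with Ide+/+ replicate 1 far below the rest. Its log2 fold change was 0.37 (SE 0.25, adjusted p = 0.304 by edgeR). The kinesin-2 motor subunits Kif3a and Kif3b had log2 fold changes of -0.25 and -0.37, with adjusted p of 0.320 and 0.223 by edgeR. The count of Kif3a per count of Kif3b was 1.75 ± 0.248 in Ide-/- libraries and 1.61 ± 0.237 in Ide+/+ libraries (SD, n = 3 and n = 5) and overlapped between genotypes.

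Rfx3, the transcription factor that drives ciliary genes and is needed for islet cell differentiation in mice (chr19:27761721-28011166, minus strand), missed the threshold narrowly. It had 12.2, 12.2 and 14 CPM in Ide-/- islets, against 5.91, 9.52, 10.3, 8.25 and 8.15 CPM in Ide+/+ islets, with no overlap. Its log2 fold change was 0.59 (SE 0.20, adjusted p = 0.0541 by edgeR), and it was called by DESeq2, which called 12.5% of all genes higher. It was also called by edgeR without Ide+/+ replicate 1 (adjusted p = 0.0359, with 13.4% of all genes higher) or without Ide+/+ replicate 3 (adjusted p = 0.0498, with 8.51%). Leaving out any Ide-/- library gave adjusted p between 0.123 and 0.169 by edgeR, and secretory granule scaling gave 0.184. With the acinar share as a term its log2 fold change was -0.28 (adjusted p = 0.748 by edgeR). Rfx3 lies 9.26 Mb from Ide on the same chromosome, and Bbs1 32.4 Mb from it. Arl13b, a GTPase of the ciliary membrane (chr16:62793685-62847040, minus strand), had 6.29, 7.36 and 4.40 CPM in Ide-/- islets, against 5.11, 6.57, 5.69, 5.12 and 7.08 CPM in Ide+/+ islets. The genotypes overlapped, and its log2 fold change was 0.04 (SE 0.22, adjusted p = 0.913 by edgeR). Arl13b overlaps Stx19 on the opposite strand, which averaged 11.6 counts.

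**Figure D4:**
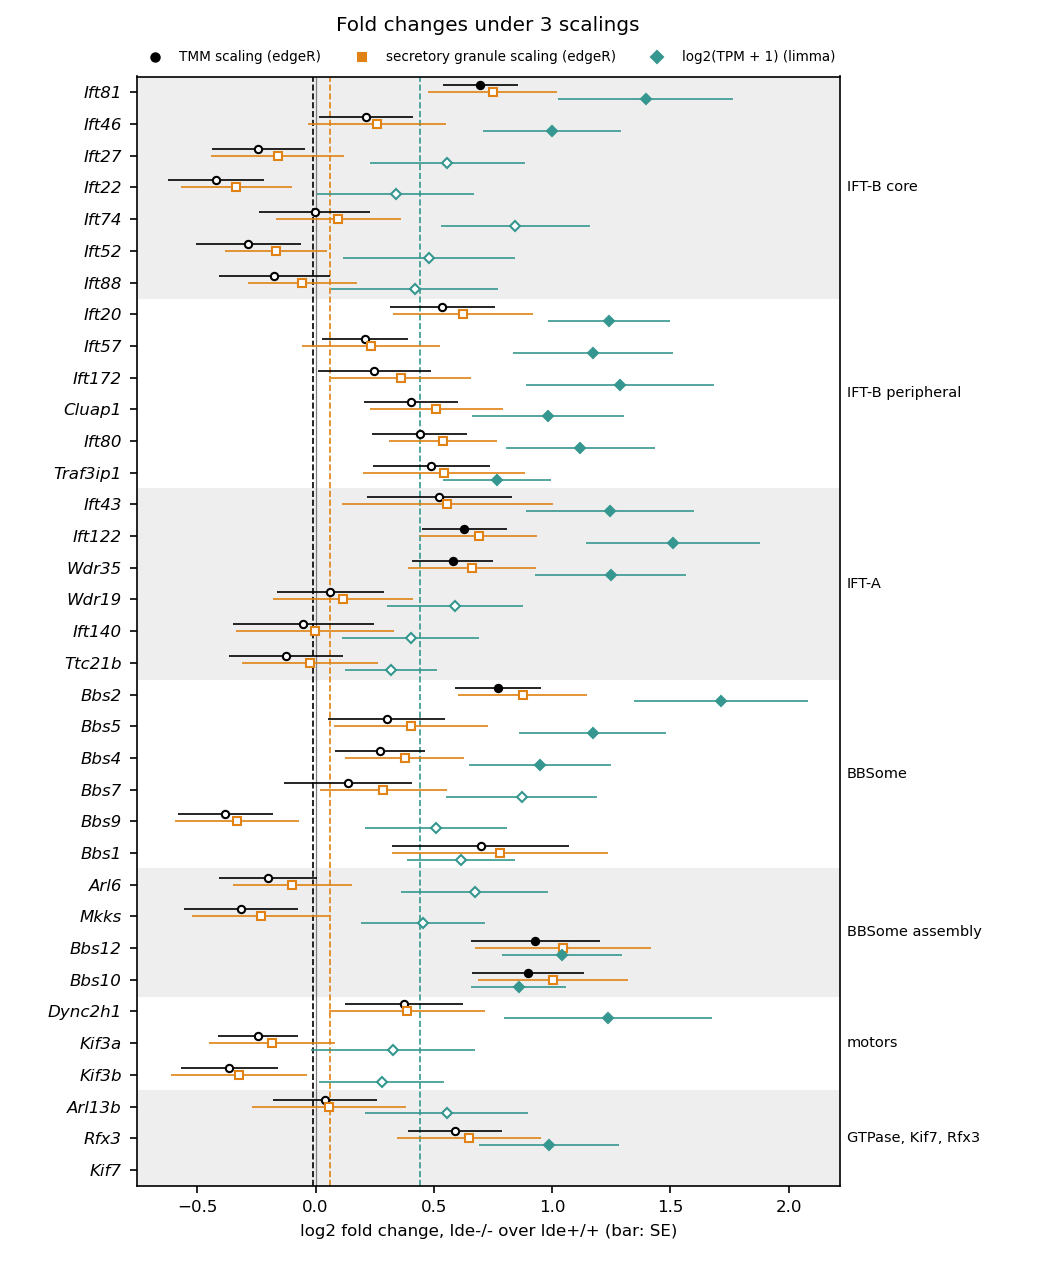
Log2 fold change, Ide-/- over Ide+/+, of the 34 tested genes with SE bars under TMM scaling (black circles), scaling on secretory granule genes (orange squares) and log2(TPM + 1) (green diamonds); filled symbols passed an adjusted p under 0.05, and dashed lines mark the median of all genes in each fit. TMM and granule scaling give like values, with 6 filled symbols for TMM and 0 for granule scaling. Most TPM values lie to the right of the TMM values, with 18 filled, while those of Bbs1 and Bbs10 lie to the left.

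Because the libraries differed so much in acinar RNA, each gene was also expressed per 1000 counts on the 35 genes, a quantity that no scaling between libraries enters. By this measure Ift81 took 73.9, 74.1 and 74.9 of every 1000 counts in Ide-/- libraries, against 48.9, 54.5, 58.2, 59.2 and 62.2 in Ide+/+ libraries. Its share was nearly the same in the Ide-/- libraries and stood above all Ide+/+ libraries. In all, 5 of 35 members (14.3%) had every Ide-/- share above every Ide+/+ share, namely Ift81, Bbs2, Bbs10, Bbs12 and Wdr35. In the same measure 8.75% of all tested genes stood apart upward and 27.9% downward. The 8 members (22.9%) that stood apart downward were Ift22, Ift27, Kif3a, Kif3b, Arl6, Mkks, Ttc21b and Bbs9. The motor subunit Kif3a took 22, 25.7 and 20 of every 1000 counts in Ide-/- libraries, against 33.2, 33.2, 31.8, 30.5 and 36.2 in Ide+/+ libraries. Bbs9 took 13.6, 10.2 and 8.63 in Ide-/- libraries, against 18, 19.5, 15.9, 16.7 and 16.9 in Ide+/+ libraries. A share can move because other members moved or because the mix of cells differs. A higher or lower share therefore does not show that a gene itself rose or fell. The part of the acinar share in these values was not tested.

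**Figure D5:**
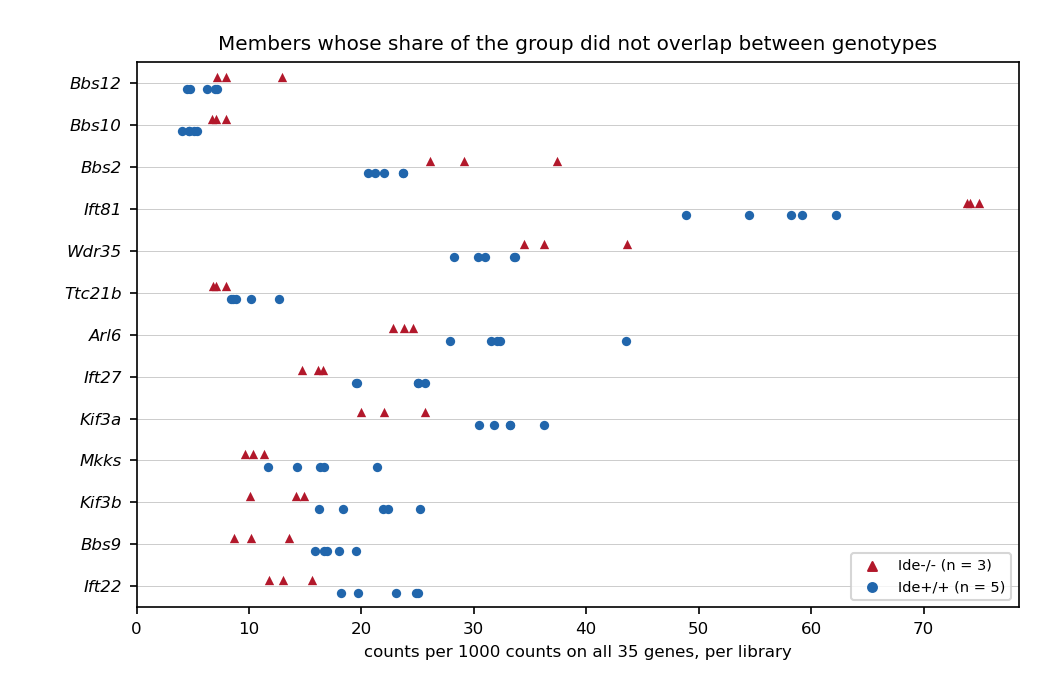
Counts per 1000 counts on the 35 genes for the 13 members whose shares did not overlap between genotypes, one row per gene with Ide-/- libraries as triangles (n = 3) above Ide+/+ libraries as circles (n = 5). The upper 5 rows are higher in Ide-/- libraries, led by Bbs12 and Bbs10 in ratio, and the lower 8 rows are lower.

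Among the Ide+/+ libraries the members had a median coefficient of variation of CPM of 19.2%, against 30.3% over all tested genes. Ide+/+ replicate 1 was the highest of the 5 Ide+/+ libraries for 18 of 34 members (52.9%, against 32.1% of all genes) and the lowest for 6 (17.6%, against 36.5%). Bbs4 was one of these, with 15 CPM in replicate 1, while the rest of its group lay between 9.75 and 10.8 CPM, and its expected counts were not whole in 8 of 8 libraries. Among the Ide-/- libraries, replicate 3, the shallowest, was the highest for 17 members (50%, against 41.3% of all genes) and the lowest for 15 (44.1%, against 39.1%).

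Other genes of the cilium were read from 6 lists of 176 genes outside the 35, of which 148 were tested. In Ide-/- islets 22 of these were called higher (14.9%, against 10.4% of all genes) and 3 lower (2.03%, against 10.6%), and the median log2 fold change was 0.11. At the transition zone, the gate at the cilium base, 6 of 29 genes rose (20.7%), 0 fell and the median was 0.40. Cep290, a scaffold of this gate, averaged 32.0 ± 4.27 CPM in Ide-/- islets and 16.9 ± 0.398 CPM in Ide+/+ islets and rose by 0.92 on the log2 scale (adjusted p = 0.00317 by edgeR). Cc2d2a, of the same gate, had 0.81 and Invs, which marks the segment just above it, 0.94. Rpgrip1 and Tmem107 were also called. Leaving out Ide-/- replicate 1, 2 or 3 or Ide+/+ replicate 4 lowered the 22 higher calls over the 6 lists to 10, 12, 8 and 10. In these fits the share of all genes called higher also fell, from 10.4% to 5.08%, 4.61%, 4.07% and 6.2%. Leaving out Ide+/+ replicate 1 raised the 3 lower calls to 7, where 13.3% of all genes were called lower, against 10.6% with all libraries.

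Among 29 tested genes of other cilium transport, 3 rose (10.3%, near the share of all genes), 1 fell and the median was 0.09. Rabl2, a GTPase that binds the IFT-B complex, averaged 31.6 ± 1.23 CPM in Ide-/- islets and 15.4 ± 3.03 CPM in Ide+/+ islets and rose by 1.03 on the log2 scale (adjusted p = 0.00462 by edgeR). Arl2bp rose by 1.14 and Rab23, a GTPase that restrains Hedgehog signalling, by 0.56 on the log2 scale. Trim32, a ubiquitin ligase mutated in a form of Bardet-Biedl syndrome, fell by 0.91 on the log2 scale. Among 21 tested genes of ciliary signalling other than Arl13b, 3 rose (14.3%, against 10.4% of all genes) and 1 fell (4.76%, against 10.6%). Sstr3, the somatostatin receptor that sits in the ciliary membrane, averaged 32.3 ± 10.3 CPM in Ide-/- islets and 14.8 ± 3.99 CPM in Ide+/+ islets and rose by 1.11 on the log2 scale (adjusted p = 0.0111 by edgeR). Efcab7 had 1.17 and the lipid phosphatase Inpp5e 0.77, while the prostaglandin receptor Ptger4 fell by 1.88 on the log2 scale.

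Among 39 tested genes of the basal body and ciliogenesis, 6 rose (15.4%, against 10.4% of all genes), 0 fell (against 10.6%) and the median was 0.06. Ofd1, of the distal centriole, had a log2 fold change of 0.83, Aurka 1.09 and Cep164, of the distal appendages, 0.88, and Nek2, Plk1 and Cep97 were the others. Aurka, Nek2 and Plk1 are kinases of mitosis, and the 12 cell cycle markers, all called higher, summed to 100.9 to 142.4 CPM in Ide-/- libraries and 20.1 to 41.0 CPM in Ide+/+ libraries. The part of cycling cells in these 3 calls was not tested.

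Genes of motile cilia were tested for 24 of 37 and gave 2 higher (8.33%, below the share of all genes), 1 lower and a median of -0.06. Cfap43 (log2 fold change 2.14) and Dnaic1 (1.22), both of the motile axoneme, were higher, and Dnaaf3, which assembles dynein arms, fell by 2.21 on the log2 scale. Of the RFX and other factors listed as transcription factors of ciliogenesis, without Rfx3, 7 of 13 were tested. In this list 2 rose (28.6%, against 10.4% of all genes) and the median was 0.43, and 7 genes are too few to set against that share. The 2 were Rfx6 and Rfx5, whose roles given next are not in ciliogenesis. Both count among the 22 higher calls over the cilium lists. Rfx6, which directs islet endocrine cell formation in mice, averaged 74.1 ± 5.09 CPM in Ide-/- islets and 38.4 ± 4.76 CPM in Ide+/+ islets and rose by 0.95 on the log2 scale (adjusted p = 0.00533 by edgeR). Rfx5, which controls major histocompatibility class II genes, had 0.83. Duct cells carry primary cilia too, and the summed level of 13 duct markers was 305.7 to 326.5 CPM in Ide-/- libraries and 1047 to 2763 CPM in Ide+/+ libraries, with 9 of 12 tested called lower. Macrophage markers summed to 105.4 to 181.7 CPM in Ide-/- libraries and 408.9 to 758.7 CPM in Ide+/+ libraries. The part of these cell types in the values of the 35 genes was not tested.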

How the data were processed

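Islet RNA of 3 Ide-/- and 5 Ide+/+ samples was sequenced from libraries made with a low-input kit with 100 ng of RNA each (integrity number over 6.5), per the labels' protocols. The submitters' processing notes name STAR 2.7.1a, RSEM 1.3.1 and the build GRCm38. Neither the gene annotation nor the strandedness of counting is given in the sources used here. The authors deposited 1 table per sample with an expected count per gene, a model estimate that is not normalized. The same deposited tables give TPM, scaled for length and to a fixed library sum, so that it moves with composition.

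Symbols and positions came from GENCODE M21, which matched 55227 of 55487 identifiers. Expected counts were rounded and tested by quasi-likelihood in edgeR 4.0.16 (R 4.3.3, robust dispersion, TMM factors, filterByExpr with a minimum count of 10 and a total of 15), with genotype alone in the model. Adjustment was by Benjamini-Hochberg over 16266 genes and the call threshold was 0.05. A positive log2 fold change means higher in Ide-/- islets. Its SE was taken as its absolute value over the root of the F statistic. TMM factors ran from 1.53 to 2.06 in Ide-/- libraries and from 0.405 to 1.18 in Ide+/+ libraries, so scaling enters every CPM.

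The members and the gene lists were chosen with earlier results of these data known. Per-library values were given for Ide, each called gene, the member with the highest TPM in each role and a few others singled out after their values were seen (Ift22, Bbs1, Rfx3 and the shares and ratios). In the lists, up to 3 called genes per direction were named by smallest p, and further called genes by symbol, except 1 that is not reported here. The symbol Ccdc41 was not matched.

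Alternatives were DESeq2 1.42.0, RLE factors, TMM without acinar genes, scaling on the summed counts of secretory granule genes, no filter, limma 3.58.1 (voom, and trend on log2(TPM + 1) or log2(TPM + 0.1), with and without a minimum mean TPM of 0.1), the acinar share or the replicate number as a term, each library left out, and only Ide+/+ replicates 2 and 3, the last chosen after seeing the data. The labels do not say that equal replicate numbers pair the samples. Deviations of same-numbered libraries correlated at 0.049, 0.009 and -0.093, and those of differently numbered libraries at -0.127 to 0.158. With 3 Ide-/- libraries and acinar shares that differ so much, these values cannot exclude a pairing. The steps were also run on simulated counts. Apart from genes changed on purpose, these had the same mean proportions in both genotypes, so the difference in acinar share was not simulated.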

Additional observations from a re-analysis of the deposited data

Results flagged for a closer look

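Of 35 sets of Ide+/+ values tested, 1 held a library far from the others. Bbs4, a BBSome subunit, had 15 CPM in Ide+/+ replicate 1, while the other 4 Ide+/+ libraries lay between 9.75 and 10.8 CPM. The gap was 0.755 of the whole range, above Dixon's critical value of 0.71 for 5 samples, a rule that chance alone passes in about 5% of such sets. Bbs4 overlaps Adpgk on the opposite strand, and its expected counts were not whole numbers in 8 of 8 libraries. The Ide-/- libraries had 12, 13.9 and 14.6 CPM, between this library and the others. Ide+/+ replicate 1 had the largest acinar share and the smallest mitochondrial share of all libraries, and their part in its Bbs4 value was not tested.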

How the results depend on the processing

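The 6 calls kept the same direction under every alternative except for Ift122 with the acinar share as a term (-0.07). DESeq2, RLE factors and TMM without acinar genes called all 6, with 12.5%, 10.4% and 9.91% of all genes called higher. Limma-voom called 5 of them, with 11% of all genes higher, and not Bbs12 (adjusted p = 0.0523 by limma-voom). On log2(TPM + 1) without a filter, 9 members were called higher, with 10.6% of all genes, and Ift81 was not among them (adjusted p = 0.0517 by limma). The count of members higher was 0 with secretory granule scaling (7 at an unadjusted p under 0.05), where 4.94% of all genes were called higher. It was 3 without the low-count filter (5.27% of all genes), and 18 and 17 on log2(TPM + 1) and log2(TPM + 0.1) (29.2% and 22.3%). With the acinar share as a term it was 0 (3 unadjusted), where 0.00615% of all genes were called higher. With the replicate block, whose numbers are not labelled as pairs, it was 0 (8 unadjusted), where 2.86% of all genes were called higher. The share of all genes at an unadjusted p under 0.05 is not given for these fits. Leaving out single libraries gave 1 to 9 members called higher, with 4.07% to 13.4% of all genes. The count of members lower was 1 with only Ide+/+ replicates 2 and 3. The members' median log2 fold change was 0.86, 1.16 and, unfiltered, 0.86 on the TPM scales, where the median of all genes was 0.44, 0.82 and 0.13. The cause was not tested.

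For the cilium lists, higher calls numbered 12 with granule scaling, 60 and 43 on the TPM scales, 0 with the acinar term, 3 with the block and 8 to 27 with a library left out. Lower calls numbered 5 by DESeq2 (13.5% of all genes), 6 without the filter (5.89%) and 9 with only Ide+/+ replicates 2 and 3 (12.4%). They numbered 0 on every TPM scale, 0 with the acinar term and 1 to 7 with a library left out. Over all genes, higher and lower calls were 803 and 900 with granule scaling, 5603 and 393 on log2(TPM + 1), 4281 and 394 on log2(TPM + 0.1), 3228 and 302 on TPM unfiltered, 1 and 15 with the acinar term, 465 and 706 with the block, and 694 to 2141 and 809 to 2139 with a library left out. The Ide log2 fold change kept its direction and call throughout.

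Reversed log2 fold changes, none of them called, were as follows. On log2(TPM + 1), filtered and unfiltered alike, Ift22 was 0.34, Ift27 0.56, Ift52 0.48, Kif3a 0.33, Arl6 0.67, Ift140 0.40, Mkks 0.46, Kif3b 0.28, Ift74 0.85, Ttc21b 0.32, Bbs9 0.51 and Ift88 0.42. On log2(TPM + 0.1) these were 0.38, 0.61, 0.55, 0.36, 0.75, 0.76, 0.61, 0.49, 0.96, 0.66, 0.74 and 0.54 in the same order. With the acinar term Bbs1 was -1.23, Ift27 0.11, Ift52 0.00, Arl6 0.54, Arl13b -0.14, Mkks 0.83, Ift74 0.79, Ift122 -0.07, Traf3ip1 -0.01, Ttc21b 0.37, Wdr19 -0.83, Ift172 -0.82, Ift88 0.34, Rfx3 -0.28 and Dync2h1 -0.76. With the block Bbs7 was -0.10. Ift74 was 0.10 with granule scaling, 0.01 without the filter and 0.06 by voom. With only Ide+/+ replicates 2 and 3, Mkks was 0.02, Ift74 0.17, Wdr19 -0.14 and Ift172 -0.08. With a library left out, Ift74 ran from -0.11 to 0.19, Wdr19 from -0.06 to 0.18, Arl13b from -0.13 to 0.21, Ift140 from -0.26 to 0.14 and Ttc21b from -0.20 to 0.01.

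Depth limits the lowly expressed members: Kif7 had at most 5 counts in a library, and the fewest counts on all 35 genes were 5913 among Ide-/- libraries (replicate 3) and 3842 and 4664 among Ide+/+ libraries (replicates 5 and 1).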
